A study of Mus musculus with 13 samples.

Results

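The genes described here are the Wnt ligands, their receptors and co-receptors, the secreted and membrane antagonists, and the feedback and nuclear components of the same pathway. They were taken by symbol from the deposited table of normalised expression, and 52 of its 14911 genes matched. Messenger RNA of the whole hamstring was sequenced in female C57BL/6 mice on day 4 of an injury made by injecting cardiotoxin, a myotoxic venom protein, into the muscle at 0.32 mg/kg. All mice carried this injury. The saline group (n = 4 mice) received daily intraperitoneal saline, and the dexamethasone group (n = 9 mice) received the synthetic glucocorticoid dexamethasone at 10 mg/kg on the same schedule. The labels give no age. By the submitters' account every dexamethasone mouse had bone in the injured muscle, and a saline mouse with bone was removed from the study, so the drug and bone formation cannot be told apart. Uninjured muscle was not analysed here.

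Wnt ligands are secreted lipid-modified proteins. They bind Frizzled receptors together with the co-receptors LRP5 and LRP6, which stabilises beta-catenin and lets it act with TCF and LEF factors on target genes, or they signal through ROR and RYK receptors without beta-catenin. Secreted SFRP, WIF and DKK proteins block ligands or co-receptors, while R-spondins acting through LGR receptors keep Frizzled proteins on the cell surface. In regenerating muscle this pathway is known for its part in myoblast differentiation and in the behaviour of fibro-adipogenic progenitors, and in the skeleton for promoting bone formation.

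Of the 52 genes, 14 were higher and 10 were lower in dexamethasone-treated muscle at an adjusted p under 0.05 (limma with Benjamini-Hochberg adjustment over all genes). Over all 14911 genes 25.2% were higher and 22.9% were lower, so the share of Wnt genes that changed (46.2%) was close to that of all genes (48.1%). The median log2 fold change was 0.03 over the Wnt genes and 0.01 over all genes, and the median of its size without sign was 0.30 and 0.23. Changes with a log2 fold change of at least 1 in size were found in 7 of the 52 genes, against 5.19% of all genes. They were rises of the ligands Wnt7b and Wnt10a, the antagonist Wif1 and the feedback gene Nkd2, and falls of Lef1, Sfrp4 and Frzb. At a size of at least 0.5 there were 13 such genes, against 17.3% of all genes. In 8 genes all dexamethasone libraries lay above every saline library (12.9% of all genes) and in 6 genes all lay below (12.9% of all genes), against 25.8% of all genes in either direction. The plot of differences by role shows both directions within the ligands, the Frizzled receptors, the ligand-binding antagonists and the intracellular regulators.

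**Figure D1:**
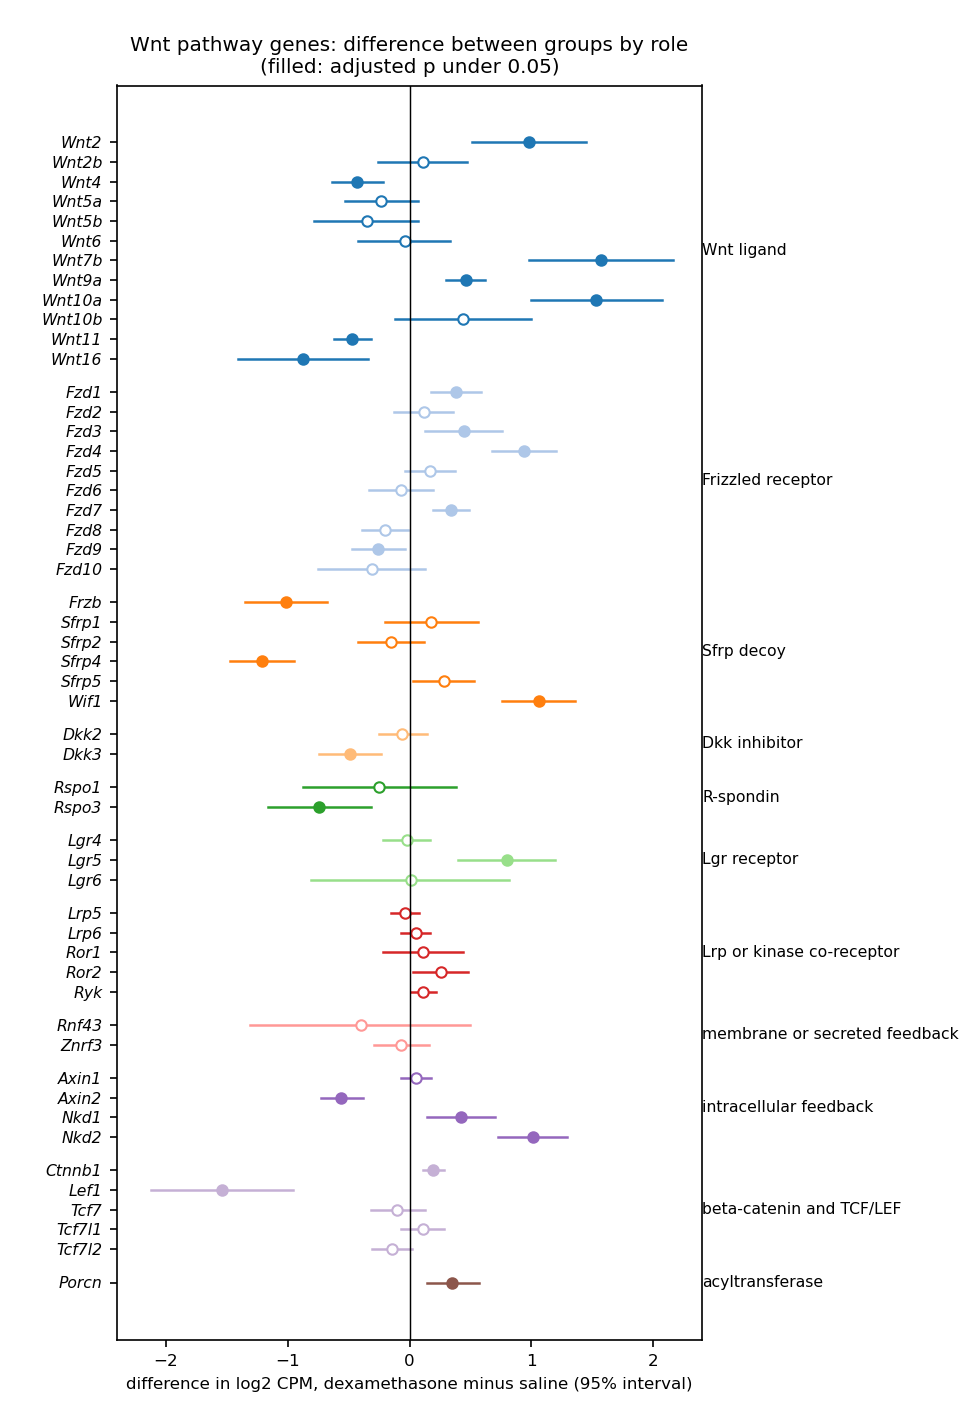
Difference in log2 CPM between dexamethasone and saline for the 52 Wnt pathway genes, with its 95% interval, grouped by role (Frzb and Wif1 are drawn with the Sfrp genes). Filled points passed an adjusted p of 0.05; the extremes are Lef1 at -1.54 and Wnt7b at 1.57.

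Values are log2 read counts scaled to an effective library size (log2 CPM) with an offset of 0.5 read. That size differs from the library's own read sum, as in saline library 1, at 25724674 against 29349446 reads. A fold change is a difference of group means on that scale. Whole reads could be recovered from the values, 25531487 to 34942266 per library, and 13 of the 52 genes had under 100 reads a library on average. Mature muscle fibre genes were abundant in both groups, with summed levels of 142000 to 217000 CPM in saline and 99700 to 147000 CPM in dexamethasone over 22 genes, of which 10 fell and 0 rose. Markers of other cells of the tissue were counted in the same way, against 48.1% of all genes called in either direction. The share called was 45.5% for the fibre genes, 55.6% for fibro-adipogenic progenitor markers and 53.8% for satellite cell markers. It was lower for endothelial (16.7%), cartilage and bone cell (25.0%), Schwann cell (30.0%) and mural cell (40.0%) markers. It was higher for T cell (91.7%), B cell (100%), tenocyte (80.0%) and adipocyte (80.0%) markers. T cell markers fell in 11 of 12, with log2 fold changes from -2.91 to -0.77. The T cell list summed to 109 to 155 CPM in saline and 83.9 to 101 CPM in dexamethasone, a sum carried by Thy1 (6.43 and 6.31 log2 CPM), the marker that did not pass. B cell markers fell in 10 of 10, from 110 to 158 CPM to 26.8 to 57.9 CPM. Tenocyte markers rose in 5 and fell in 3 of 10 (1170 to 1650 CPM and 2490 to 3030 CPM), and adipocyte markers rose in 8 of 10 (978 to 1610 CPM and 1220 to 2470 CPM). Fibro-adipogenic progenitor markers rose in 4 and fell in 6 of 18, with overlapping sums of 12100 to 16400 CPM and 12500 to 16700 CPM. Endothelial markers rose in 1 and fell in 1 of 12, and satellite cell markers rose in 5 and fell in 2 of 13 (636 to 842 CPM and 822 to 957 CPM). Cartilage and bone cell markers rose in 1 and fell in 2 of 12 (38.8 to 85 CPM and 40.0 to 53.1 CPM). The 2 that fell, named after their values were seen, were Sp7 and Alpl. Sp7 fell by 3.14 on the log2 scale, from a mean of 2.13 to -1.01 log2 CPM with groups apart (limma adjusted p 1.48e-06). Alpl fell by 0.73 (limma adjusted p 0.000644). The 1 marker that rose was higher by 0.70 with overlapping groups (limma adjusted p 0.00201), and the other 9 did not pass. No marker of these lists was at 0 reads throughout a group, while Cd8b1 and Ibsp were at 0 in at least 1 library. The part of these cells in the results below was not tested, and in whole tissue fewer cells of a type cannot be told apart from less RNA per cell.

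Promoter sequences are shown for 3 genes that changed and whose start-site window held a searched motif, namely the feedback gene Axin2, the receptor gene Fzd4 and the ligand gene Wnt11. They come from RefSeq on build GRCm38.p6, run from 250 bases before to 50 bases after the start site, and are written 5′ to 3′ on the strand of the gene, with the match in capitals. For Axin2 and Fzd4 the capitals mark AGAACA, a core of the glucocorticoid response element, and for Wnt11 they mark ATCAAAG, a core bound by TCF and LEF factors.
Axin2, chr11:108920099-108920398, plus strand: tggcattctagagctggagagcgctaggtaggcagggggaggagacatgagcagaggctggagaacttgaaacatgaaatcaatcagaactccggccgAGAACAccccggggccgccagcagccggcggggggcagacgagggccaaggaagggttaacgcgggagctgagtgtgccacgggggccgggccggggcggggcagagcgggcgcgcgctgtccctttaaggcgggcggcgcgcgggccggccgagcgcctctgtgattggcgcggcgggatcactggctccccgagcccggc
Fzd4, chr7:89404116-89404415, plus strand: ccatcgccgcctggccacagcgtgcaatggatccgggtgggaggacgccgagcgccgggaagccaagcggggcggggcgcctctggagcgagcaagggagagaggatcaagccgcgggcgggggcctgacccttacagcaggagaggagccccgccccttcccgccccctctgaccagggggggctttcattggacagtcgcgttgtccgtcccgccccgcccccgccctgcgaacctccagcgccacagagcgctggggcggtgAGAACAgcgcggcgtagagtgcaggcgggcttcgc
Wnt11, chr7:98834862-98835161, plus strand: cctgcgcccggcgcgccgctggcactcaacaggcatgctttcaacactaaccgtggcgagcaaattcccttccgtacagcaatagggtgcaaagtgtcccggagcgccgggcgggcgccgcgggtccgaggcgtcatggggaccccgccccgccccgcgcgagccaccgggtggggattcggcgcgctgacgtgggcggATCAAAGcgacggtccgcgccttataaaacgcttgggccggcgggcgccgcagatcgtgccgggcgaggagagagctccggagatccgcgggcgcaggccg

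Of the 52 genes, 35 had a window in the RefSeq table, and the first listed window of each gene was searched on both strands. AGAACA was found in 4 of the 35 windows (11.4%) against 12.7% of the 11746 windows of all measured genes. ATCAAAG or TTCAAAG, motifs that do not overlap AGAACA, were found in 1 of 35 (2.86%) against 6.21%. The matches lie at position -152 for Axin2, 16 for Fzd4 and -51 for Wnt11, counted from the start site. A match describes letters in the window and not a bound site.

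Among the 12 measured ligands, 4 rose, 3 fell and 5 did not pass, a share called of 58.3% against 48.1% of all genes. Per length, Wnt9a was by its mean the most abundant ligand in both groups, at 6.05 ± 0.184 RPKM (CPM per kilobase of exon; SD, n = 4) in saline and 8.39 ± 0.878 RPKM in dexamethasone (SD, n = 9). Wnt4 (5.18 ± 0.931 and 3.83 ± 0.36 RPKM) and Wnt11 (3.45 ± 0.117 and 2.50 ± 0.206 RPKM) followed in that order by their means, and in saline Wnt4 lay within its own spread of Wnt9a. Every other ligand averaged under the level of Wnt11 in each group. The summed ligand level was 19.1 to 21.6 RPKM in saline and 20.6 to 23.2 RPKM in dexamethasone, ranges that overlap, while its make-up differed. Wnt9a took 28.6 to 32.2% of the sum in saline libraries and 33.1 to 43.1% in dexamethasone libraries, Wnt4 22 to 29.6% and 14.8 to 19.5%, and Wnt11 15.7 to 18.8% and 10.7 to 13.0%.

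Wnt9a (Entrez 216795, mm10 chromosome 11, 59306928 to 59333552), a ligand known in joint and skeletal development, stood at 4.37, 4.33, 4.27 and 4.36 log2 CPM in saline libraries 1, 2, 3 and 5, and at a lowest, median and highest of 4.53, 4.82 and 5.06 in dexamethasone libraries. The groups did not overlap, and the log2 fold change was 0.46 ± 0.08 (SE; limma adjusted p 0.000139). Wnt10a, a ligand of the beta-catenin branch, stood at -1.44, 0.14, 0.27 and 0.12 log2 CPM in saline and at 0.95, 1.31 and 1.61 in dexamethasone. Here and below, 3 values for dexamethasone are the lowest, median and highest of its 9 libraries. All 9 dexamethasone libraries were above the saline range, saline library 1 was far below the other saline libraries, and the log2 fold change was 1.53 ± 0.25 (SE; limma adjusted p 0.000152). Its reads numbered 9 to 35 in saline and 60 to 92 in dexamethasone. Wnt6, whose annotated end lies 6193 bases from the start of Wnt10a on chromosome 1 in the same orientation, had a log2 fold change of -0.04 (95% interval -0.42 to 0.33).

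Wnt7b, another beta-catenin branch ligand, was rare, at 6 to 20 reads in saline and 29 to 61 in dexamethasone. Its levels of -1.60, -1.89, -0.48 and -0.67 log2 CPM in saline lay below the dexamethasone libraries at 0.00, 0.40 and 1.04, a log2 fold change of 1.57 ± 0.28 (SE; limma adjusted p 0.000268). Both folds of the rare ligands depend on the offset. On the scale of log2 of CPM plus 1 they were 0.68 for Wnt7b and 0.87 for Wnt10a, and both still passed. Wnt2, a beta-catenin branch ligand of the same subfamily as Wnt2b, stood at 1.14, 1.61, 0.50 and 0.77 in saline and at 1.31, 1.99 and 2.73 in dexamethasone. The groups overlapped only through saline library 2 and dexamethasone library 1, and Wnt2 rose 1.97-fold (limma adjusted p 0.00195). Wnt2b had a log2 fold change of 0.11 (95% interval -0.26 to 0.47).

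The falling ligands were Wnt11, Wnt4 and Wnt16. Wnt11, a ligand of the beta-catenin-independent branch, stood at 3.83, 3.78, 3.89 and 3.84 log2 CPM in saline and at 3.22, 3.38 and 3.59 in dexamethasone. The groups were apart, and Wnt11 fell by 0.47 ± 0.07 on the log2 scale (SE; limma adjusted p 6.8e-05). Wnt4, known for promoting muscle differentiation, stood at 4.75, 4.48, 4.14 and 4.34 in saline and at 3.69, 4.01 and 4.20 in dexamethasone, and was 1.34-fold lower (limma adjusted p 0.00234). Only saline library 3 reached into the dexamethasone range. Wnt16, a ligand known for acting on cortical bone, stood at 0.10, 0.85, -0.34 and 0.28 in saline and at -1.28, -0.69 and -0.06 in dexamethasone, a log2 fold change of -0.87 ± 0.25 (SE; limma adjusted p 0.00925). Without saline library 2 it was -0.66 and no longer passed (limma adjusted p 0.0531), and on the scale of log2 of CPM plus 1 it was -0.41. Wnt5a and Wnt5b, ligands of the beta-catenin-independent branch, and Wnt10b, known for restraining fat formation, had log2 fold changes of -0.23, -0.35 and 0.44 and did not pass. Wnt10b passed without saline library 2, at 0.71 (limma adjusted p 0.0377).

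**Figure D2:**
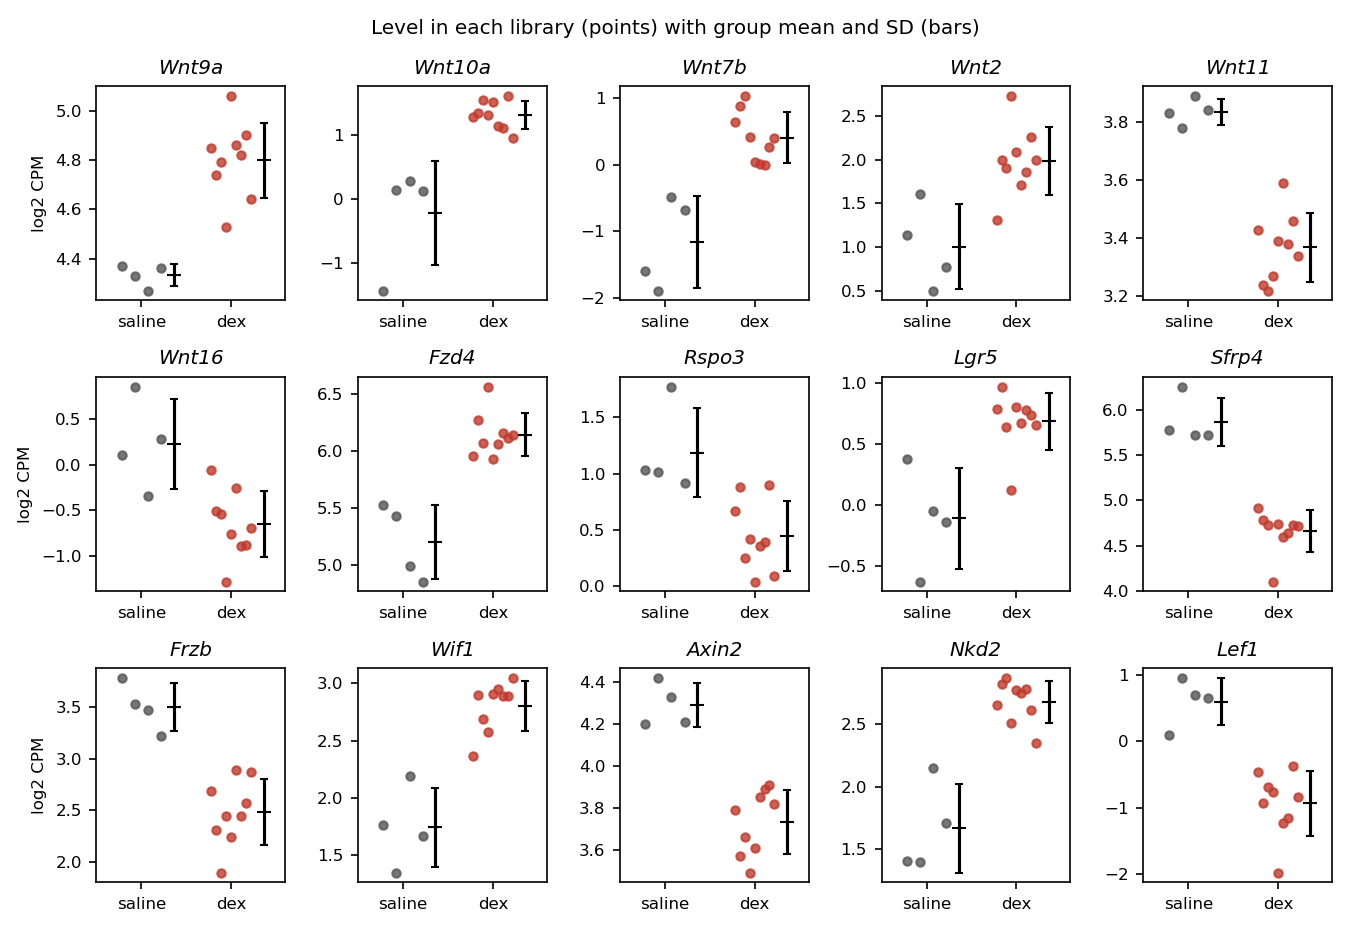
Log2 CPM of 15 Wnt pathway genes in each of 4 saline and 9 dexamethasone (dex) libraries, as points, with the group mean and SD as bars beside them; the vertical axis of each panel has its own range. Wnt9a, Fzd4 and Nkd2 are higher in every dexamethasone library than in any saline library, and Sfrp4, Frzb, Axin2 and Lef1 are lower.

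Porcn, which encodes the acyltransferase that attaches the lipid to Wnt ligands, stood at 3.51, 3.56, 3.47 and 3.75 log2 CPM in saline and at 3.48, 3.95 and 4.17 in dexamethasone. It rose 1.28-fold (limma adjusted p 0.00878), although dexamethasone library 9 lay within the saline range. Wls, the carrier that takes ligands to the cell surface, had a log2 fold change of 0.04 ± 0.06 (SE) and was named after its value was seen.

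Frizzled receptor genes rose in 4 and fell in 1 of 10, a share called that was close to the 48.1% of all genes. Fzd4, a Frizzled known in blood vessel growth, stood at 5.52, 5.43, 4.99 and 4.85 log2 CPM in saline and at 5.93, 6.11 and 6.56 in dexamethasone. Its groups were apart, with dexamethasone library 4 the highest, and it rose by 0.94 ± 0.12 on the log2 scale (SE; limma adjusted p 1.73e-05). Fzd7, a receptor of satellite cells, was 1.27-fold higher with groups apart (5.67, 5.70, 5.49 and 5.41 against 5.77, 5.91 and 6.15; limma adjusted p 0.000833). Fzd1 was 1.31-fold higher and Fzd3 1.36-fold higher, both with overlapping groups. The Fzd3 call was lost without saline library 1, at a log2 fold change of 0.35 (limma adjusted p 0.0876). Fzd9 was 1.19-fold lower at the edge of the threshold (limma adjusted p 0.0455). Omitting any of 8 libraries ended that call (saline 1, 2 or 3, or dexamethasone 2, 3, 4, 7 or 8). Over all 13 omissions the log2 fold change ranged from -0.38 to -0.19, with a limma adjusted p of up to 0.164. In the authors' deposited table Fzd9 had an adjusted p of 0.056. Fzd2, Fzd5, Fzd6, Fzd8 and Fzd10 did not pass, with log2 fold changes from -0.31 to 0.17. Fzd8 passed as lower without saline library 2 (-0.26) or dexamethasone library 2 (-0.23). With all libraries it also passed under median centring (-0.22, limma adjusted p 0.0408) and quantile normalisation (-0.23, limma adjusted p 0.0339).

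The summed Frizzled level was 40.9 to 45.4 RPKM in saline and 48.5 to 53.6 RPKM in dexamethasone, ranges that do not overlap. Fzd7 was the most abundant Frizzled in both groups by its mean (10.5 ± 1.03 and 13.3 ± 1.08 RPKM; SD, n = 4 and 9). Fzd9 followed in saline (9.65 ± 1.52 RPKM), within the spread of Fzd7, and Fzd4 in dexamethasone (10.6 ± 1.5 RPKM). The share of Fzd4 was 10.5 to 16.1% in saline libraries and 17.7 to 28.4% in dexamethasone libraries, and that of Fzd9 18.2 to 24.9% and 13.3 to 18.1%.

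**Figure D3:**
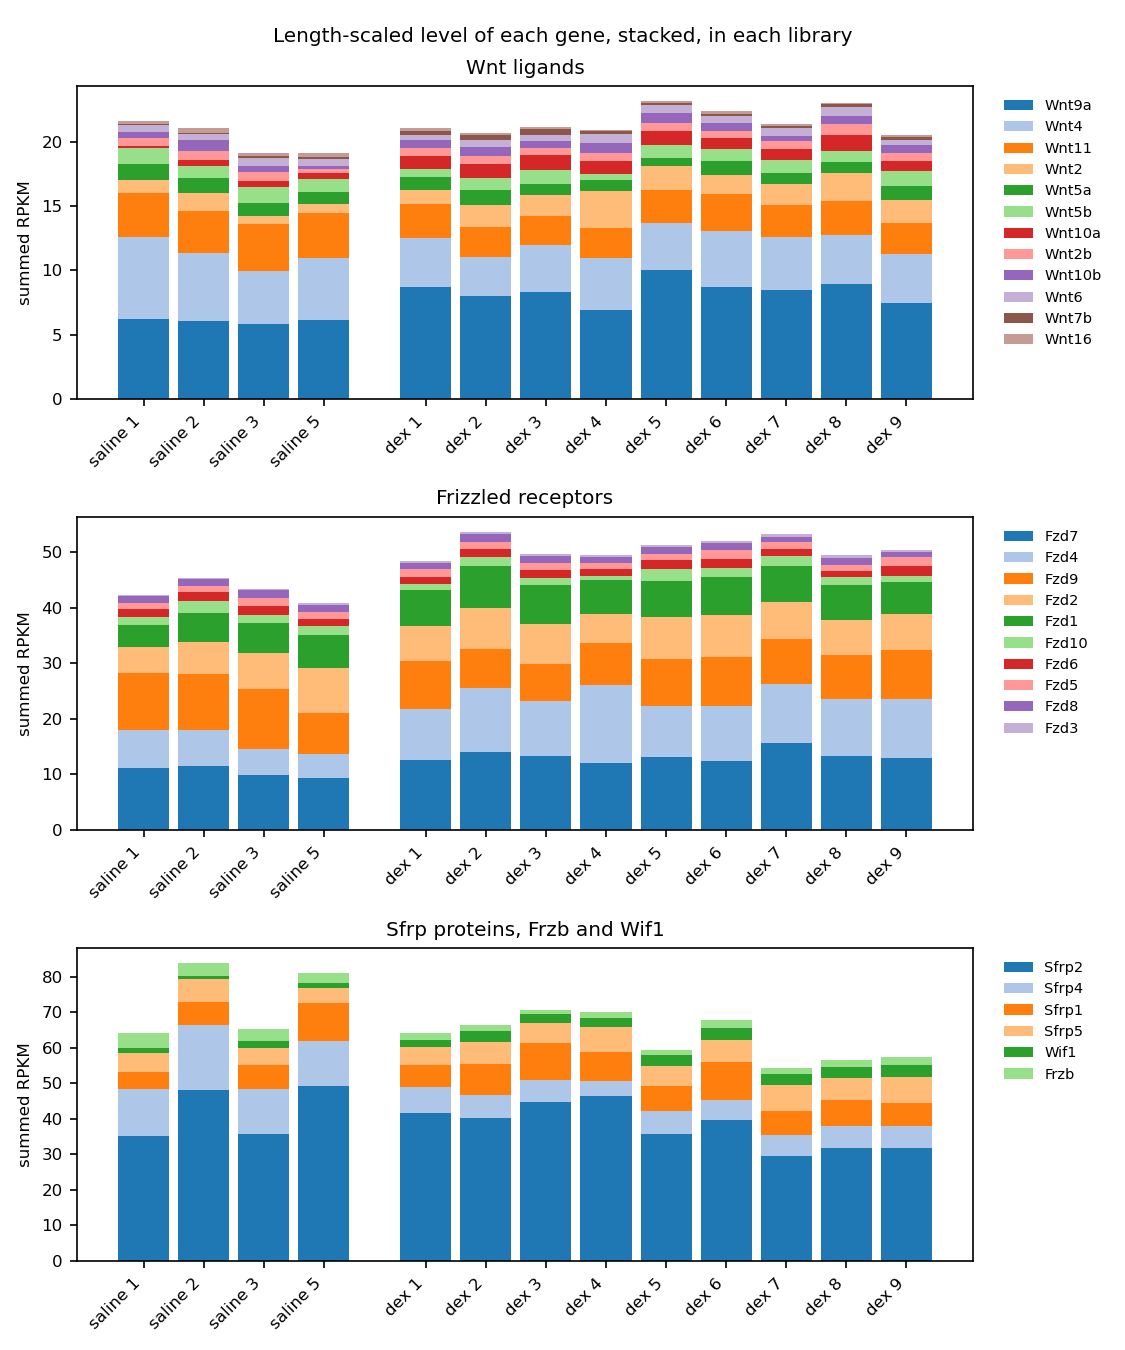
Level per exon length (RPKM) of each Wnt ligand (top), Frizzled receptor (middle) and ligand-binding antagonist (bottom), stacked, in each saline and dexamethasone (dex) library. The Frizzled sum is 40.9 to 45.4 RPKM in saline and 48.5 to 53.6 RPKM in dexamethasone, and the Sfrp4 band narrows from 15.6 to 21.9% of its sum to 5.88 to 11.3%.

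Lrp5 and Lrp6 had log2 fold changes of -0.04 (95% interval -0.15 to 0.08) and 0.05 (95% interval -0.07 to 0.17). Ror1, Ror2 and Ryk, receptors for the beta-catenin-independent branch, had 0.11, 0.26 and 0.11 and did not pass. Ror2 passed without saline library 5 (0.36, limma adjusted p 0.011) or dexamethasone library 4 (0.29, limma adjusted p 0.0282), and Ryk without saline library 5 (0.15) or dexamethasone library 3 (0.13). In limma 0 of the 5 passed, against 48.1% of all genes. Of these 5 receptor genes, Ror2 and Ryk had an unadjusted limma p under 0.05 (0.0281 and 0.036). The voom fit on recovered reads called 0 of the 5, the fit with library weights called 1 (Ror2, 0.27, limma adjusted p 0.0267), and the fit with each library's own read sum called 3. Those 3 were Lrp6 at 0.17, Ror2 at 0.37 and Ryk at 0.23 (limma adjusted p 0.025, 0.0297 and 0.00812).

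Among secreted antagonists that bind ligands, the family members went different ways. Sfrp4, a frizzled-related decoy known from bone and connective tissue, stood at 5.78, 6.26, 5.72 and 5.72 log2 CPM in saline and at 4.10, 4.73 and 4.92 in dexamethasone. Every dexamethasone library was below every saline library, with dexamethasone library 4 the lowest, and Sfrp4 was 2.31-fold lower (limma adjusted p 2.33e-06). Frzb, a related decoy first known from cartilage, stood at 3.78, 3.53, 3.47 and 3.22 in saline and at 1.90, 2.45 and 2.89 in dexamethasone, a 2.02-fold fall (limma adjusted p 9.64e-05) with groups apart. Wif1, a decoy of a different structure, moved the other way, from 1.77, 1.35, 2.19 and 1.67 to 2.37, 2.89 and 3.05. It rose 2.09-fold with groups apart (limma adjusted p 2.59e-05).

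Sfrp2, the most abundant decoy gene at 42.1 ± 7.64 RPKM in saline and 37.9 ± 6.08 RPKM in dexamethasone (SD, n = 4 and 9), did not pass, at a log2 fold change of -0.15 (95% interval -0.42 to 0.12). Sfrp1 (0.18) and Sfrp5 (0.28) did not pass either. Sfrp5 passed as higher without saline library 2 (0.40, limma adjusted p 0.0139), dexamethasone library 1 (0.32) or dexamethasone library 3 (0.31). With all libraries it also passed when each library's own read sum was used (0.40, limma adjusted p 0.00843). The 6 decoy genes summed to 64.1 to 83.9 RPKM in saline and 54.3 to 70.6 RPKM in dexamethasone, ranges that overlap. Within that sum Sfrp4 took 15.6 to 21.9% and 5.88 to 11.3%, and Wif1 1.24 to 2.87% and 3.32 to 5.95%.

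Of the Dickkopf genes, Dkk3, a divergent member of a family that mostly blocks the LRP co-receptors, stood at 3.18, 3.72, 3.84 and 3.30 log2 CPM in saline and at 2.87, 3.01 and 3.35 in dexamethasone. It was 1.40-fold lower (limma adjusted p 0.00331), with saline libraries 1 and 5 inside the dexamethasone range. Dkk2 had a log2 fold change of -0.06 (95% interval -0.25 to 0.14). Dkk1 was not analysed here.

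Rspo3, an R-spondin of stromal and vascular cells, stood at 1.03, 1.01, 1.77 and 0.92 log2 CPM in saline and at 0.04, 0.39 and 0.90 in dexamethasone, and fell by 0.74 ± 0.20 on the log2 scale (SE; limma adjusted p 0.0063). The groups were apart by a narrow gap, and on the scale of log2 of CPM plus 1 the difference was -0.47. Lgr5, a receptor for R-spondins and a target of the pathway in epithelia, moved the other way, from 0.38, -0.63, -0.05 and -0.14 to 0.12, 0.74 and 0.97. It had 15 to 33 reads in saline and 30 to 65 in dexamethasone, and a log2 fold change of 0.80 ± 0.19 (SE; limma adjusted p 0.00241), or 0.44 on the scale of log2 of CPM plus 1. Dexamethasone library 4 lay within the saline range, below the other 8. Rspo1, Lgr4 and Lgr6 did not pass. Rnf43 and Znrf3, the ubiquitin ligases that R-spondins inhibit, had log2 fold changes of -0.40 (95% interval -1.31 to 0.50) and -0.07 (95% interval -0.29 to 0.16), the first on 5 to 35 reads.

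The feedback genes inside the cell did not move together. Axin2 (Entrez 12006, mm10 chromosome 11, 108920349 to 108950783), a scaffold of the beta-catenin destruction complex and a widely used target gene of the beta-catenin branch, stood at 4.20, 4.42, 4.33 and 4.21 log2 CPM in saline and at 3.49, 3.79 and 3.91 in dexamethasone. All 9 dexamethasone libraries were below the saline range, with a fall by 0.56 ± 0.08 on the log2 scale (SE; limma adjusted p 6.87e-05). Nkd2, which encodes a Dishevelled-binding inhibitor that is itself induced by Wnt signals, stood at 1.41, 1.40, 2.15 and 1.71 in saline and at 2.35, 2.75 and 2.87 in dexamethasone, a rise of 2.02-fold with groups apart (limma adjusted p 1.95e-05). Its relative Nkd1 rose 1.34-fold (limma adjusted p 0.0163), and without saline library 1 the log2 fold change was 0.31 and did not pass (limma adjusted p 0.0789). Axin1, the constitutive scaffold, had a log2 fold change of 0.05 (95% interval -0.07 to 0.18).

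Ctnnb1, which encodes beta-catenin, was the most abundant of these genes per length (56.2 ± 1.70 and 64.3 ± 1.77 RPKM; SD, n = 4 and 9). It was 1.14-fold higher with groups apart, at 8.18, 8.14, 8.19 and 8.24 against 8.30, 8.40 and 8.42 log2 CPM (limma adjusted p 0.00124). Scaled to each library's own read sum the log2 fold change was 0.31 instead of 0.19. Lef1, a nuclear partner of beta-catenin that T cells and B cell precursors also express, stood at 0.10, 0.95, 0.70 and 0.66 in saline and at -1.98, -0.84 and -0.37 in dexamethasone. All dexamethasone libraries were below the saline range, on 27 to 51 reads in saline and 7 to 25 in dexamethasone. The log2 fold change was -1.54 ± 0.27 (SE; limma adjusted p 0.000288), or -0.72 on the scale of log2 of CPM plus 1. The T cell receptor genes Cd3e and Cd3g, chosen after their values were seen, stood at mean levels of 1.24 and 1.10 in saline and -0.56 and -1.03 in dexamethasone, and the part of T cells in the fall of Lef1 was not tested. Tcf7, another factor of the family that T cells express, had a log2 fold change of -0.10 (95% interval -0.32 to 0.13). Tcf7l1 and Tcf7l2, the more widely expressed members, had 0.11 and -0.14 and did not pass. Tcf7l1 passed without saline library 2 (0.21, limma adjusted p 0.0391).

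Other genes of the pathway were grouped in 4 lists that share no gene with the 52. The target list therefore leaves out target genes described above. Among these are Axin2, which fell (-0.56), and Nkd2 and Lgr5, which rose (1.01 and 0.80). Of 35 measured target genes 18 rose and 2 fell, with a median log2 fold change of 0.36. Over all genes 25.2% were higher and 22.9% lower, with a median of 0.01, and the shares called were 57.1% for this list, 53.7% for the intracellular list, 44.4% for the extracellular list and 31.2% for the planar polarity list, against 48.1% of all genes. Fst, which encodes an activin antagonist, rose by 1.5, Ccn2 and Ccn4, matricellular proteins, by 1.68 and 1.39, and Myc by 0.92 on the log2 scale (limma adjusted p from 1.19e-07 to 4.48e-06). Many of these genes are also targets of other pathways. Tbx1, a transcription factor of muscle development, fell by 0.29 on the log2 scale and was named after its value was seen. Without saline library 1 or saline library 3, and with each library's own read sum, 1 gene of the list fell. Tenocyte markers rose in 5 and fell in 3 of 10 in these libraries as given above, and their part was not tested.

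Of 41 intracellular components 9 rose and 13 fell, with a median of 0.02. Cby1 and Ctnnbip1, which encode inhibitors that bind beta-catenin, fell by 0.41 and 0.40, while Ctbp2, a corepressor, and Jup, which encodes plakoglobin, a relative of beta-catenin, rose by 0.32 and 0.41. With each library scaled to its own read sum 15 rose and 8 fell. Of 27 genes of secretion and the extracellular space 8 rose and 4 fell (median -0.13). Trabd2b, which encodes a protease that inactivates Wnt ligands, and Adgra2, a Wnt7 co-receptor of blood vessels, rose by 0.74 and 0.50, while the glypicans Gpc3 and Gpc4 fell by 0.65 and 0.37. With median centring 7 of this list fell, as did 7 without saline library 1, and 2 with each library's own read sum. Of 32 genes of planar polarity and calcium signalling 6 rose and 4 fell (median 0.03), which with each library's own read sum became 14 rises. Rock1, a kinase acting on the cytoskeleton, and Daam2, a formin, rose by 0.40 and 0.57, and Prickle3 and Camk2b fell by 0.43 and 0.48.

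**Figure D4:**
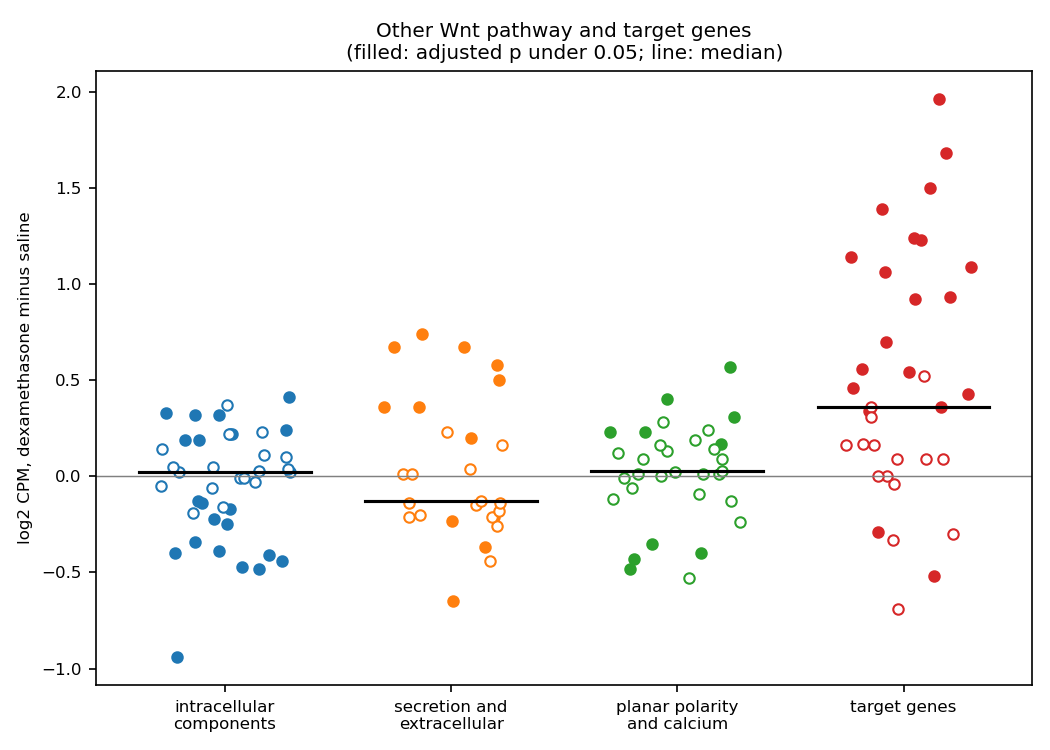
Difference in log2 CPM between dexamethasone and saline for single genes (points) of 4 lists of other Wnt pathway genes, with the median of each list as a line; filled points passed an adjusted p of 0.05. The target genes have a median of 0.36 and 18 rises, while the intracellular and planar polarity lists have medians of 0.02 and 0.03.

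Dexamethasone library 4 was the highest or the lowest dexamethasone library for 23 of the 52 genes (44.2%), against 34.1% of all genes, and for 11 of the 24 that changed. Among those 11 it was highest for Fzd4, Wnt2 and Porcn and lowest for Sfrp4, Wnt9a, Axin2, Wnt16, Lgr5, Fzd3, Fzd7 and Nkd1. Without that library 15 of the 52 genes were higher and 9 were lower, and without saline library 3 and dexamethasone library 4 together 14 and 9. Some genes share their position with another gene, such as Wnt5b with Fbxl14 and Ctnnb1 with Ulk4 on the opposite strand. The libraries kept strand, but whether reads were counted by strand is not given in the sources used here, so the levels of such genes are uncertain.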

How the data were processed

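Whole hamstring muscle RNA of 13 mice, 1 polyA-selected stranded library per mouse, was compared between 4 saline and 9 dexamethasone mice, grouped by the labels. Reads were counted with featureCounts 2.0.1 on mm10 and handled with limma 3.50.1, per the submitters' processing notes. Neither aligner nor gene filter is named in those notes. Values deposited by the authors are log2 CPM values alongside their own log2 fold changes, p-values and score columns. 1 column, of an excluded saline mouse, was not used.

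Values were fitted with limma 3.58.1 (R 4.3.3) over all 14911 genes, two-sided, letting the prior variance follow intensity, at a Benjamini-Hochberg adjusted p of 0.05. Recovered reads were whole within 0.01 in 100% of values. RPKM used GENCODE vM21 exon lengths. Libraries of a group differed by a chi-square per gene of at least 7.22. Figures were drawn with matplotlib 3.10.9.

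On simulated data for dexamethasone against saline over 14911 genes, the fit found 96 of 100 genes given a log2 change of 1 and 64 of 100 given 0.5, with 9 false among 169 calls. The changed genes were drawn only from those with a saline level of at least 0 log2 CPM. The recovery therefore does not cover rarer genes such as Wnt7b (saline mean -1.16). The simulation also changed far fewer genes than the 48.1% called in the data.

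The Wnt genes, gene lists and tests were chosen with earlier results of these data known. All Wnt genes are accounted for. For those changed by at least 0.5 on the log2 scale and some others named by role, each saline library is given. For the same genes the dexamethasone libraries are given by their lowest, median and highest. From the other lists up to 4 genes of smallest adjusted p with mean log2 CPM of at least 0 are named. Settings varied were the second table of normalised values, an offset of 1 CPM, a filter at mean log2 CPM of 0, 3 other scalings, 3 other variance models, voom, a replicate block and each library left out. 1 gene of the target list is not reported here by name.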

Additional observations from a re-analysis of the deposited data

Results flagged for a closer look

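Within a group, the highest or lowest library stood apart from the rest by Dixon's test in 10 of 104 groups of libraries tested, where chance flags about 1 in 20. Values are log2 CPM. Wnt4 in dexamethasone library 2 was at 3.69, the lowest of its group, with the others at 3.95 to 4.20. Wnt5a in dexamethasone library 5 was at 2.32, the lowest of its group, with the others at 2.74 to 3.17. Wnt10a in saline library 1 was at -1.44, the lowest of its group, with the others at 0.12 to 0.27. Fzd9 in saline library 5 was at 4.09, the lowest of its group, with the others at 4.54 to 4.64. Sfrp4 in saline library 2 was at 6.26, the highest of its group, with the others at 5.72 to 5.78. Sfrp4 in dexamethasone library 4 was at 4.10, the lowest of its group, with the others at 4.60 to 4.92. Rspo1 in saline library 2 was at 0.19, the highest of its group, with the others at -0.98 to -0.90. Rspo3 in saline library 3 was at 1.77, the highest of its group, with the others at 0.92 to 1.03. Lgr5 in dexamethasone library 4 was at 0.12, the lowest of its group, with the others at 0.64 to 0.97. Porcn in dexamethasone library 9 was at 3.48, the lowest of its group, with the others at 3.85 to 4.17.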

How the results depend on the processing

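The direction of each of the 24 called Wnt genes held under every alternative in which it was tested, and 19 of them passed in each of these. Wnt7b, Lef1 and Wnt16 were not tested under the filter at a mean log2 CPM of 0, which removed them. The calls of Fzd9, Wnt16, Fzd3, Nkd1 and Dkk3 were lost under at least 1. Of the 28 uncalled genes, 7 passed under at least 1 alternative, among them Lrp6 with each library's own read sum (log2 fold change 0.17). Leaving out 1 library gave 12 to 17 higher and 9 to 10 lower Wnt genes, and over all genes 3357 to 3767 higher and 2949 to 3409 lower. With each library's own read sum the median log2 fold change of all genes moved from 0.007 to 0.122, with 5256 genes higher and 2001 lower against 3760 and 3413, and 18 Wnt genes higher and 9 lower. Mouse numbers are not stated to mark a shared cage or day, so they were not taken as pairs. The deviations of mice with the same number had correlations of -0.0699 to 0.118, of which 1 of 4 was over 0.1. So few libraries cannot decide whether the mice were paired. Whether such mice shared a litter or day was not tested. On the 8 libraries numbered in both groups, 15 Wnt genes were higher and 7 lower with the replicate block and 15 and 7 without it, a fit added after seeing the data. Dkk3 was then at -0.40 (limma adjusted p 0.0791 with the block). Depth limits genes such as Lgr6, Rnf43 and Rspo1, with intervals of -0.81 to 0.82, -1.31 to 0.50 and -0.87 to 0.38, which do not show that their levels are alike.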
